A study of Mus musculus with 17 samples.

Results

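The coat protein complex II (COPII) genes and the genes of 2 cargo receptors that leave the endoplasmic reticulum (ER) with the coat were followed in cultures of lung cells from Ephb4 control and Ephb4-CKO mice. The study grew these cultures as lung fibroblasts. The 10 genes, Sar1a, Sec23a, Sec23b, Sec24a, Sec24b, Sec24c, Sec24d, Sec31a, Lman1 and Cnih1, were found by symbol in the gene count matrix of 55421 genes. All 10 were among the 10481 genes that passed the filter on low values, which kept genes with a CPM, the count relative to the total of its library, above 10 in at least 2 libraries. Every mouse carried Ephb4f/f, the floxed Ephb4 alleles, together with the Col1a2-CreERT2 transgene, so named in the labels and written Col1a2-CreERT in the methods of the study, whose Cre recombinase is driven by the Col1a2 promoter and is therefore meant for collagen-producing cells. At 4 weeks of age the Ephb4-CKO mice received 4-hydroxytamoxifen at 1 mg/day for 5 days and the Ephb4 controls received corn oil, and at 6 weeks of age bleomycin at 1.2 U/kg or PBS was instilled into the trachea. Cells were grown from the lungs taken at day 14, passaged a single time, and total RNA was sequenced with 1 library per mouse. There were 4 Ephb4 control mice with PBS, 4 Ephb4 control mice with bleomycin, 5 Ephb4-CKO mice with PBS and 4 Ephb4-CKO mice with bleomycin. Bleomycin is a standard means of inducing lung fibrosis in mice, and EphB4 is a receptor tyrosine kinase for ephrin-B2.

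COPII coats carry newly made proteins from the ER toward the Golgi. The GTPase Sar1 is loaded with GTP at ER exit sites and recruits the inner coat, a dimer of Sec23 and Sec24, in which Sec23 stimulates GTP hydrolysis by Sar1 and Sec24 binds the sorting signals of cargo. The outer coat of Sec13 and Sec31 then forms a cage around the bud. Mammals have paralogs of most subunits. Loss of SEC23A or SEC24D in people and fish causes skeletal defects with procollagen held in the ER, and collagens are the main product of fibroblasts.

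Total counts per library ranged from 66540022 to 120554468. Ephb4 was measured at 66.01, 13.3, 35.8 and 41.0 CPM in the Ephb4 control mice after bleomycin and at 14.2, 9.66, 10.3 and 5.00 CPM in the Ephb4-CKO mice after bleomycin. The groups overlapped, and edgeR gave a log2 fold change of -1.998 (SE 0.79, adjusted p = 0.220). After PBS, Ephb4 was measured at 24.5, 4.06, 33.9 and 2.35 CPM in the controls and at 7.81, 23.9, 9.09, 4.06 and 4.10 CPM in the CKO mice. Control mice 2 and 4 were at or below every CKO mouse and CKO mouse 2 was near control mouse 1, so that the level of Ephb4 did not separate the labelled genotypes after PBS, and directions between them rest on the labels. Counts of Xist and of Y-linked genes went against the labelled sex in 3 libraries, those of mouse 2 of the Ephb4 controls and mice 1 and 2 of the CKO group, all after bleomycin. The cultures also differed in their markers. Of 14 fibroblast markers, among them Col1a1 and Pdgfra, 13 passed the filter, and the summed level is that of all 14. It ranged from 6516 to 13702 CPM in Ephb4 controls after bleomycin and from 47.7 to 2080 CPM in Ephb4-CKO mice after bleomycin. After PBS it ranged from 27.7 to 8666 CPM in Ephb4 controls and from 65.1 to 2259 CPM in Ephb4-CKO mice. Col1a1 was at 0.365 CPM in the lowest library, an Ephb4 control after PBS. The summed level of 20 macrophage markers ranged from 1366 to 21532 CPM in Ephb4 controls after bleomycin and from 24589 to 44511 CPM in Ephb4-CKO mice after bleomycin. Of the 4 smooth muscle markers, the summed level ranged from 451 to 469 CPM and from 3.06 to 286 CPM in these same groups. After PBS, the summed macrophage markers ranged from 10682 to 46577 CPM in controls and from 24618 to 44952 CPM in CKO mice, and the smooth muscle markers from 1.29 to 57.4 CPM and from 3.58 to 57.6 CPM. The macrophage sum was above the fibroblast sum in every library except Ephb4 control bleomycin mouse 1 (1366 against 12641 CPM). By these markers most cultures were rich in macrophage RNA, and the levels below are those of mixed cultures. The study, by contrast, reported by flow cytometry of cultures from 3 mice that passage 1 gave fibroblasts of high purity. It does not state whether those cultures are among these libraries. In bulk RNA, fewer cells of a type and less RNA per cell cannot be told apart.

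The promoters of Sec23a and Sec24d and of a paralog of each are shown because they share, or lack, a 7-base sequence. The windows run from 250 bases before to 50 bases after the start site and come from RefSeq on GRCm38.p6, read on the strand of the gene. Capitals mark TGACGTG, a sequence of the kind bound by CREB-family factors, which was searched on both strands. The Sec23a window is chr12:59011968-59012267 (gene on the reverse strand), that of Sec24d is chr3:123267246-123267545 (forward), that of Sec23b is chr2:144555979-144556278 (forward) and that of Sec24c is chr14:20674071-20674370 (forward).
Sec23a: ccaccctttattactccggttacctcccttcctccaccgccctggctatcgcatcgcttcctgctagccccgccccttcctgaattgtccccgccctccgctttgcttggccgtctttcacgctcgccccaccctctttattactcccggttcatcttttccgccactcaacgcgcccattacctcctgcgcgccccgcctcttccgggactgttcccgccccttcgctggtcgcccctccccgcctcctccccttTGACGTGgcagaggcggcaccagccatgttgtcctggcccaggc
Sec24d: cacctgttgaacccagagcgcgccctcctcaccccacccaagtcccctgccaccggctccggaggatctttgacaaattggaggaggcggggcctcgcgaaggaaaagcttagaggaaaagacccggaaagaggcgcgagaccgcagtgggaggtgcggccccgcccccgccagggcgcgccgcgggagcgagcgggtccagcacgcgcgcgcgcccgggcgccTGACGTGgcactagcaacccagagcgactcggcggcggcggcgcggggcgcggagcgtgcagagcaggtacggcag
Sec23b: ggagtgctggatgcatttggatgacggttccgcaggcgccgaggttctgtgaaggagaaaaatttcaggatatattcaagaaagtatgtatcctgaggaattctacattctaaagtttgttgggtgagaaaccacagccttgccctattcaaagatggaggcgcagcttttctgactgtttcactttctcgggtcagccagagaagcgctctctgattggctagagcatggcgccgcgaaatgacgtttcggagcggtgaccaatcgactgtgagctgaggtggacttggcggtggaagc
Sec24c: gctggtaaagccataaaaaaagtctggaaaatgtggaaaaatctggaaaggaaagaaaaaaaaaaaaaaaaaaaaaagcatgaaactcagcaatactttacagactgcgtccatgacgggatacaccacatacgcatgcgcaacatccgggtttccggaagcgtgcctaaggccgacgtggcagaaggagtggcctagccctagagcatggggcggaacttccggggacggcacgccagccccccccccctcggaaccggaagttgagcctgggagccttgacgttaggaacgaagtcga

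The sequence began 7 bases after the start site in Sec23a and 26 bases before it in Sec24d. Promoters of 9 of the 10 genes were in the table, and these 2 were the only ones of the 9 that held it. Over all promoters of the table, 661 of 32851 (2.012%) held it. Among the 38 partner genes of ER exit with a promoter in the table, 4 held it, namely Sec16b, Mia3, Stx5a and Scfd1. The ER stress element (CCAAT, 9 bases, CCACG) was found in 0 of the 9 and in 39 of all promoters (0.119%). These matches describe the letters of the windows and nothing about binding.

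The paralogs can be told apart by short reads. Aligned coding sequences were 75.6% identical between Sec23a and Sec23b, 69.1% between Sec24a and Sec24b, 66.7% between Sec24c and Sec24d, and 60.6% to 61.7% between the other Sec24 pairs. No stretch of 75 bases, the read length, was shared in any of these pairs. Sec23a, Cnih1 and Sec24c overlap exons of Gm17529, Gm48933 and 6230400D17Rik, respectively, on the opposite strand, and the reads were aligned in strand-specific mode.

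The first comparison asked what differed between Ephb4-CKO and Ephb4 control cells after bleomycin. In the CKO cells Sec23a was lower, at 0.342 times the control level, as were Sec24d at 0.400 times and Sec31a, Lman1, Sar1a and Cnih1 at 0.465 to 0.659 times. Sec23b, Sec24a, Sec24b and Sec24c had overlapping groups and log2 fold changes of 0.03 to 0.29. The quasi-likelihood test of edgeR, adjusted by Benjamini-Hochberg, gave no gene of the whole table (0%) an adjusted p under 0.05, and limma voom called 0 of the 10 genes. At an unadjusted p under 0.05, 6 of the 10 genes were lower and 0 were higher, beside 9.18% of all genes lower and 11% higher. The same 6 had groups that did not overlap, beside 12.2% of all genes lower without overlap. The median log2 fold change was -0.66 over the 10 genes and 0.01 over all genes tested. Sec23a, Sec24d, Lman1 and Cnih1 were named by the study as ER cargo genes from these same libraries, so that their direction here is not independent evidence. Sec31a was also among the genes that the study took for a later probe panel from those lower in its sequencing, as were the partner genes Sec13 and Tfg, and the same holds for them.

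**Figure D1:**
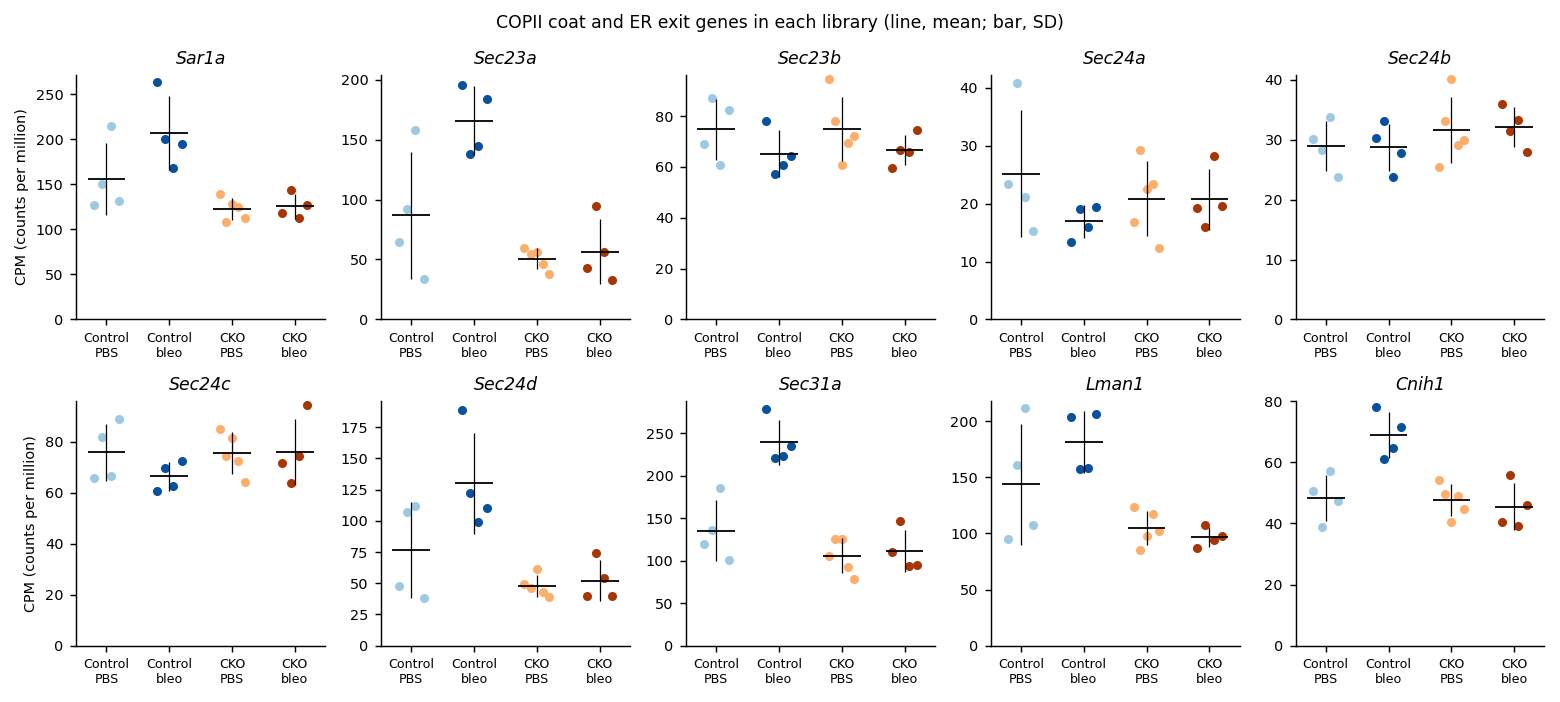
Level of each of the 10 genes in CPM (vertical axis, linear from 0) in every library of the 4 groups, with the group mean as a line and the SD as a bar. Sec23a, Sec24d, Sec31a, Lman1, Sar1a and Cnih1 were highest on average in Ephb4 controls after bleomycin, and Sec23b, Sec24a, Sec24b and Sec24c had overlapping groups throughout.

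Sec23a (ENSMUSG00000020986, chromosome 12 of GRCm38 from 58958383 to 59012017, reverse strand) encodes a subunit of the inner coat. After bleomycin it was measured at 196, 138, 145 and 184 CPM in the 4 Ephb4 controls and at 42.6, 94.6, 56.1 and 33.3 CPM in the 4 Ephb4-CKO mice. Every CKO library lay below every control library, and CKO mouse 2 was the nearest to the controls. The log2 fold change was -1.55 (SE 0.40, adjusted p = 0.187, edgeR). Sec23b (ENSMUSG00000027429, chromosome 2 from 144556229 to 144590749, forward strand), its paralog, was measured at 78.2, 57.1, 60.9 and 64.4 CPM in the controls and at 59.7, 66.7, 65.95 and 74.4 CPM in the CKO mice. The groups overlapped, and the log2 fold change was 0.03 (SE 0.16, adjusted p = 0.917, edgeR).

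Sec24d (ENSMUSG00000039234, chromosome 3 from 123267455 to 123365641, forward strand) encodes a cargo-binding subunit. Its levels were 188, 122, 98.8 and 110 CPM in the controls and 39.6, 74.5, 54.2 and 39.5 CPM in the CKO mice after bleomycin. The groups did not overlap, and control mouse 1 and CKO mouse 2 were the high libraries of their groups. The log2 fold change was -1.32 (SE 0.34, adjusted p = 0.187, edgeR). Sec24c (ENSMUSG00000039367, chromosome 14 from 20674308 to 20694852, forward strand), the Sec24 paralog closest to Sec24d in sequence, was measured at 60.8, 69.9, 62.8 and 72.3 CPM in the controls and at 71.6, 64.0, 74.4 and 94.5 CPM in the CKO mice. Its groups overlapped, with a log2 fold change of 0.20 (SE 0.15, adjusted p = 0.436, edgeR). The log2 fold change was 0.29 (SE 0.30, adjusted p = 0.564, edgeR) for Sec24a (ENSMUSG00000036391, chromosome 11 from 51692264 to 51763634, reverse strand), which ranged from 13.3 to 28.3 CPM over the 8 libraries. For Sec24b (ENSMUSG00000001052, chromosome 3 from 129982759 to 130061553, reverse strand), at 23.7 to 36.0 CPM, it was 0.16 (SE 0.16, adjusted p = 0.540, edgeR).

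Sec31a (ENSMUSG00000035325, chromosome 5 from 100361649 to 100416234, reverse strand) encodes the rod-forming subunit of the outer coat. It stood at 278, 221, 223 and 235 CPM in the controls and at 110, 146, 94.0 and 94.7 CPM in the CKO mice after bleomycin. The groups were separated by a wide gap, with CKO mouse 2 again the highest of its group. Its log2 fold change was -1.11 (SE 0.22, adjusted p = 0.187, edgeR), which placed it at position 4 by p among the 10481 genes. Sar1a (ENSMUSG00000020088, chromosome 10 from 61680299 to 61693297, forward strand), the GTPase that starts the coat, ranged from 167 to 264 CPM in the controls and from 113 to 144 CPM in the CKO mice without overlap, with a log2 fold change of -0.72 (SE 0.19, adjusted p = 0.189, edgeR).

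Among the receptors, Lman1 (ENSMUSG00000041891) encodes the lectin ERGIC-53, which carries glycoproteins such as coagulation factors out of the ER. It was measured at 204, 157, 159 and 206 CPM in the controls and at 86.8, 108, 94.1 and 98.1 CPM in the CKO mice. All CKO libraries were lower than all controls, with a log2 fold change of -0.91 (SE 0.23, adjusted p = 0.187, edgeR). Cnih1 (ENSMUSG00000015759, chromosome 14 from 46775567 to 46788411, reverse strand) encodes a cornichon homolog that escorts growth factor precursors of the TGF-alpha type. It was measured at 78.1, 61.0, 64.8 and 71.6 CPM in the controls and at 40.6, 56.0, 39.0 and 46.0 CPM in the CKO mice. Its groups did not overlap, and the log2 fold change was -0.60 (SE 0.15, adjusted p = 0.187, edgeR).

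These calls depended on the tool. DESeq2 called 399 genes (3.81% of those tested) at an adjusted p under 0.05, with Sec31a (adjusted p = 0.000883), Lman1 (0.0123), Sar1a (0.0131), Cnih1 (0.0142), Sec23a (0.0144) and Sec24d (0.0175) among them. Leaving out the 3 libraries with Xist and Y-linked counts against their label, the log2 fold change was -2.01 (SE 0.53) for Sec23a, -1.54 (SE 0.48) for Sec24d and -1.42 (SE 0.30) for Sec31a, each with an adjusted p of 0.302 in edgeR. Among the mice whose label numbers begin with 12 (4 controls and 2 CKO mice), it was -1.24 (SE 0.35), -1.16 (SE 0.38) and -0.87 (SE 0.22), respectively. These CKO mice are mice 1 and 2, whose sex genes went against their label, as did those of control mouse 2. The fit without such libraries kept CKO mice 3 and 4 after bleomycin, whose numbers begin with 11. The 2 fits thus share no CKO library after bleomycin.

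**Figure D2:**
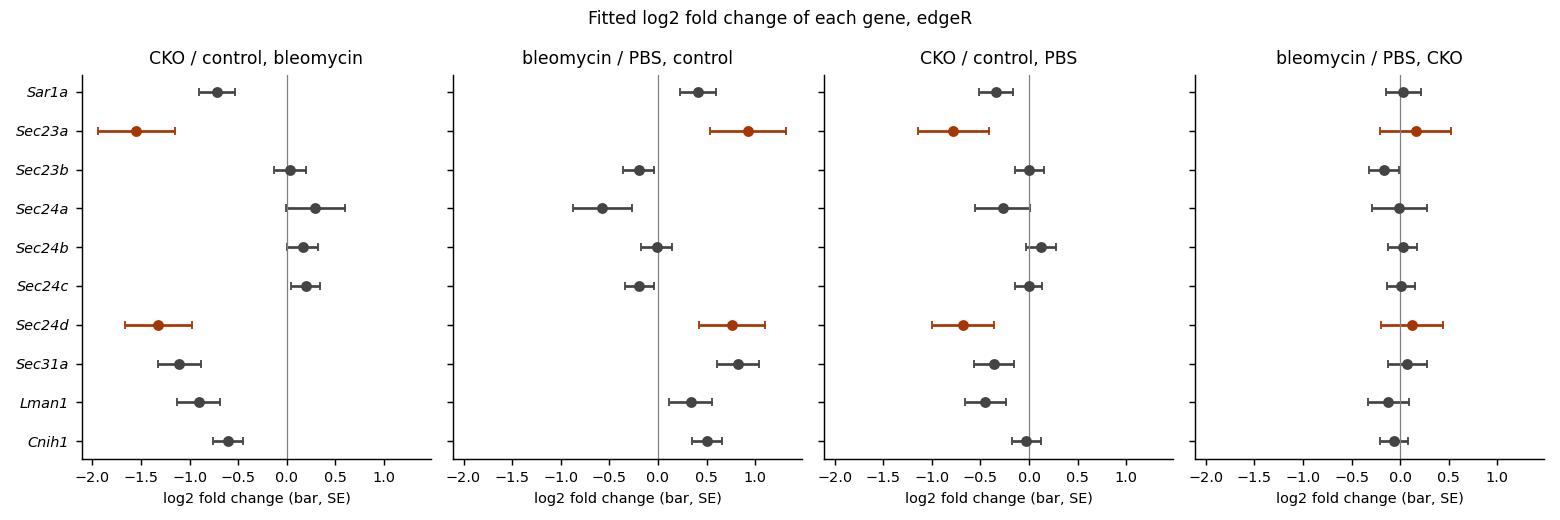
Log2 fold change (horizontal axis) of each of the 10 genes in 4 comparisons, with the SE as a bar; Sec23a and Sec24d are drawn in brown. In Ephb4 CKO versus control after bleomycin, 6 genes lay between -1.55 and -0.60 and the other 4 between 0.03 and 0.29.

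The fibroblast markers moved with the same comparison, since 13 of the 13 kept had lower means in the CKO mice after bleomycin (median log2 fold change -3.07). The fibroblast score of a library, the mean log2 CPM of these 13 genes, ranged from 7.39 to 8.24 in the controls and from 0.04 to 6.21 in the CKO mice after bleomycin. CKO mouse 2, the highest in Sec23a, Sec24d and Sec31a, had the highest score of its group. With the fibroblast score as a covariate, the log2 fold change was -0.85 (SE 0.36) for Sec23a, -0.84 (SE 0.37) for Sec24d and -0.76 (SE 0.22) for Sec31a, and the same 6 genes were lower at an unadjusted p under 0.05, with adjusted p-values of 1.00 in edgeR. Over all 10481 genes that fit had 270 lower and 150 higher at an unadjusted p under 0.05. Sec24b was higher in that fit, by 0.43 (SE 0.17, adjusted p = 1.00, edgeR). With the macrophage score as a covariate, the values were -1.16 (SE 0.40) for Sec23a, -0.91 (SE 0.33) for Sec24d and -0.84 (SE 0.21) for Sec31a. Like the fibroblast score, the macrophage score did not overlap between these groups, at 3.89 to 7.97 in the controls and 8.17 to 8.63 in the CKO mice. Genotype and marker content therefore cannot be told apart in these fits. The part of the cell types of the cultures in the difference was not tested.

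Across all 17 libraries the genes had relations of both signs with the fibroblast score. The permutations shuffled libraries across the 4 groups, so that their p-values include the differences between groups, and r within groups was not tested. Sec23a had Pearson's r = 0.84 (permutation p = 8e-05, adjusted 0.0006) and Spearman's rho = 0.78 (permutation p = 0.00034, adjusted 0.0034), adjusted over 20 relations of the 10 genes with 2 scores. Sec31a (r = 0.82, rho = 0.74), Sec24d (r = 0.77, rho = 0.77) and Sar1a (r = 0.74, rho = 0.60) were also positive, with adjusted permutation p-values between 0.0006 and 0.0217. Sec23b was negative (r = -0.64, permutation p = 0.00724, adjusted 0.0111; rho = -0.66, adjusted 0.0113), as was Sec24c (r = -0.67, permutation p = 0.00364, adjusted 0.00728; rho = -0.71, adjusted 0.00543). In the inner coat, Sec23a and Sec23b thus had opposite signs, as did Sec24d and Sec24c. Without the 2 libraries farthest from the median score, r was 0.79 for Sec23a, 0.68 for Sec24d, -0.73 for Sec23b and -0.63 for Sec24c. Within the 4 groups, after each group's mean was subtracted, r was 0.72 for Sec23a, 0.57 for Sec24d, -0.62 for Sec23b and -0.58 for Sec24c. For Lman1 (r = 0.63, adjusted permutation p = 0.0122) the rank correlation did not pass (rho = 0.47, adjusted permutation p = 0.0902). Cnih1 had r = 0.67 (adjusted permutation p = 0.00735) and rho = 0.64 (adjusted permutation p = 0.0134), but r within groups was 0.25, and 0.38 for Lman1. Sec24a (r = -0.35, adjusted permutation p = 0.220) and Sec24b (r = 0.27, adjusted permutation p = 0.350) showed no relation past the threshold.

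**Figure D3:**
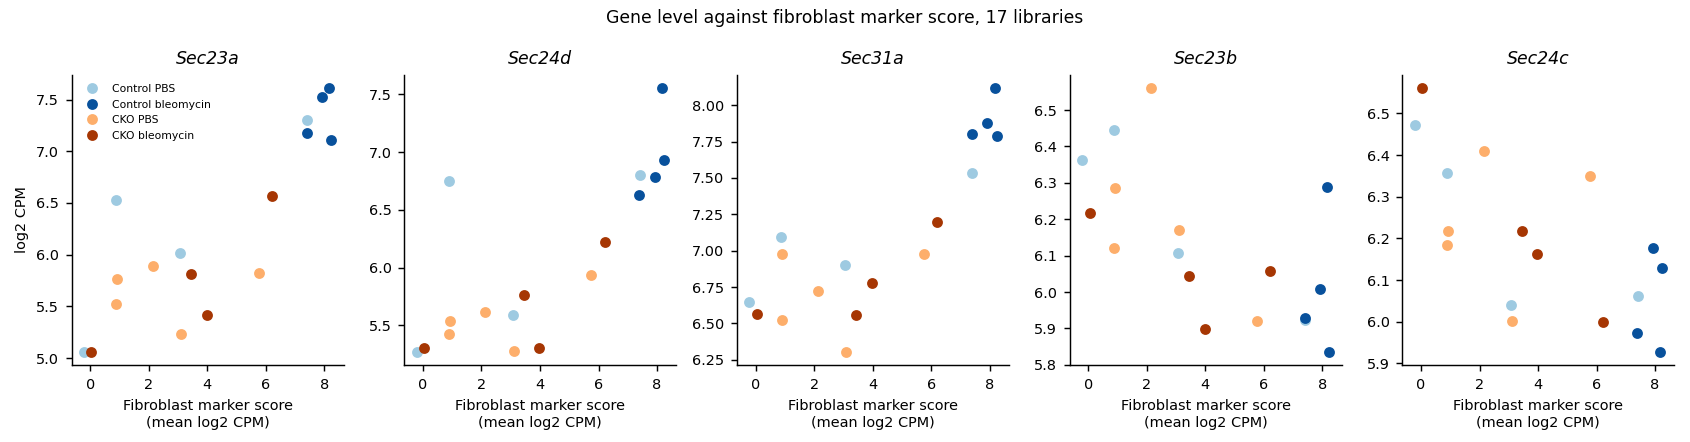
Log2 CPM of 5 genes (vertical axis) against the fibroblast marker score (horizontal axis, mean log2 CPM of 13 genes) in 17 libraries coloured by group. Sec23a, Sec24d and Sec31a had r of 0.84, 0.77 and 0.82, and Sec23b and Sec24c had r of -0.64 and -0.67.

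The macrophage score ran the other way for the genes with positive relations above. Its r was -0.67 with Sec23a (rho = -0.80), -0.71 with Sec24d (rho = -0.74) and -0.72 with Sec31a (rho = -0.75), with adjusted permutation p-values between 0.0006 and 0.00403. Without the 2 libraries farthest from the median, r was -0.69, -0.55 and -0.61, and within groups it was -0.47, -0.54 and -0.60. For Sec23b it was -0.07 (adjusted permutation p = 0.845) and for Sec24c 0.39 (adjusted permutation p = 0.155).

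The paralogs were next set against each other within each library, where depth cancels. The ratio of Sec23a counts to Sec23b counts was 2.51, 2.41, 2.38 and 2.86 in the Ephb4 controls after bleomycin and 0.713, 1.42, 0.851 and 0.447 in the CKO mice after bleomycin. In all 4 controls Sec23a had more counts than Sec23b, and in 3 of the 4 CKO mice it had fewer. On the log2 scale, with 2 added to each count, the mean was 1.34 ± 0.12 (SD, n = 4) in the controls and -0.34 ± 0.69 (SD, n = 4) in the CKO mice. The difference of -1.68 (SE 0.35) gave p = 0.0286 in a 2-sided exact permutation test, the smallest that 4 against 4 allow, and 0.0914 after adjustment over the 16 ratio tests. Sec23a was named by the study from these same libraries and Sec23b was not, so that the direction of this ratio is not independent evidence.

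The ratio of Sec24d to Sec24c was 3.10, 1.74, 1.57 and 1.53 in the controls and 0.552, 1.16, 0.729 and 0.418 in the CKO mice after bleomycin, without overlap. Its log2 difference was -1.51 (SE 0.40). The log2 difference was -1.49 (SE 0.29) against Sec24b and -1.60 (SE 0.43) against Sec24a, again without overlap. Each of these 3 differences gave the same exact permutation p of 0.0286 and adjusted 0.0914, so none passed 0.05 after adjustment. The paralog ratios thus differed by about as much as the levels of Sec23a and Sec24d themselves. Sec24d was also named by the study from these libraries, so that its ratios are no more independent than its level.

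**Figure D4:**
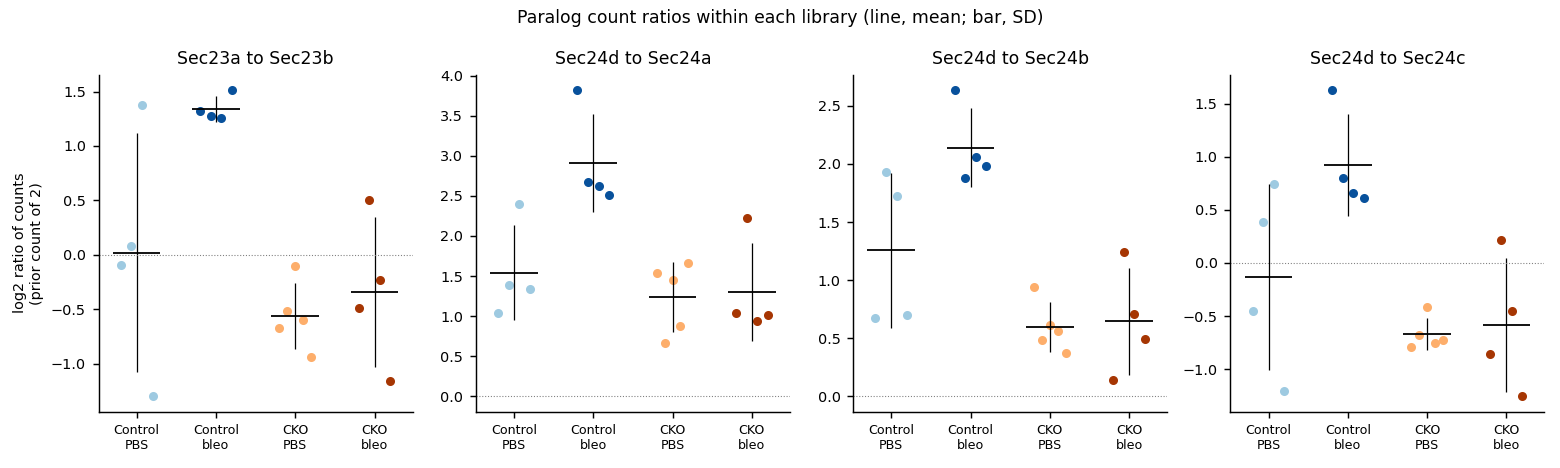
Log2 ratio of counts within each library (vertical axis, 2 added to each count) for Sec23a to Sec23b and for Sec24d to each other Sec24 paralog, by group, with mean and SD; the dotted line marks equal counts. After bleomycin the Sec23a to Sec23b ratio averaged 1.34 in Ephb4 controls and -0.34 in Ephb4-CKO mice, and no ratio overlapped between these groups. Sec23a and Sec24d were named by the study from these same libraries.

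Per length, the leading Sec24 paralog differed between the groups. With CPM divided by the length of all annotated exons in kilobases, Sec23a made up 76.7% ± 1.46 (SD, n = 4) of the Sec23 level in Ephb4 controls after bleomycin and 50.6% ± 11.6 (SD, n = 4) in the CKO mice. After PBS its share was 56.2% ± 17.5 (SD, n = 4) in controls and 46.8% ± 5.22 (SD, n = 5) in CKO mice. Sec24d made up 54.0% ± 7.47 (SD, n = 4) of the Sec24 level in controls after bleomycin, where it was the most abundant Sec24 paralog, and 29.6% ± 8.31 (SD, n = 4) in the CKO mice, where Sec24c led with 43.9% ± 7.80 (SD, n = 4). After PBS, Sec24c led in the CKO mice (45.0% against 28.1% for Sec24d), while in the controls the shares of Sec24c (40.0%) and Sec24d (36.8% ± 11.9, SD, n = 4) differed by less than their spread. Sec24a was the lowest member in each group, at 1.58 to 2.36 CPM per kilobase on average, followed by Sec24b at 4.77 to 5.34. Sar1a was the highest of the 10 in each group, with means of 32.8 to 55.3 CPM per kilobase. With the longest transcript as the length, the Sec23a shares were 65.8%, 37.9%, 44.0% and 34.0% in the same order of groups, and Sec24d and Sec24c were at 58.2% and 27.1% of Sec24 in controls after bleomycin.

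The summed level of both Sec23 paralogs was 44.6 ± 7.24 CPM per kilobase (SD, n = 4) in controls and 22.3 ± 5.50 (SD, n = 4) in CKO mice after bleomycin, and the ranges (37.5 to 52.9 and 18.3 to 30.1) did not overlap. The sum of the 4 Sec24 paralogs was 37.5 ± 6.16 (SD, n = 4) and 27.6 ± 1.52 (SD, n = 4), also without overlap (31.03 to 45.7 and 25.4 to 28.7). The lower levels of Sec23a and Sec24d were thus not evened out in the sums by the other paralogs.

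The second comparison asked what bleomycin did in the Ephb4 controls. Sec31a, Cnih1, Sec23a, Sec24d and Sar1a were higher after bleomycin than after PBS, and Sec24a had the lowest value relative to PBS. At an unadjusted p under 0.05, 5 of the 10 genes were higher, beside 6.28% of all genes, and 0 were lower, beside 7.98%. No gene of the table (0%) passed at an adjusted p under 0.05 in edgeR. The groups did not overlap for 2 of the 10, beside 5.72% of all genes higher without overlap. Single mice moved the count of 5, which was 6 without control PBS mouse 3 and 2 without control PBS mouse 1 or 4 or control bleomycin mouse 1. All 4 controls after bleomycin have label numbers that begin with 12 and 3 of the 4 controls after PBS have numbers that begin with 11. With this number series as a covariate 2 of the 10 were higher, beside 336 of the 10481 genes, and 2 were also higher when only the groups compared were fitted. The controls after bleomycin are the same libraries as in the first comparison, so that a high value there enters both.

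Sec31a was measured at 119.5, 137, 185 and 100.4 CPM in the controls after PBS, all below the 221 to 278 CPM after bleomycin. Its log2 fold change was 0.82 (SE 0.22, adjusted p = 0.268, edgeR). Cnih1 was measured at 50.6, 38.9, 57.0 and 47.2 CPM after PBS, again below the 61.0 to 78.1 CPM after bleomycin, and its log2 fold change was 0.51 (SE 0.15, adjusted p = 0.280, edgeR). DESeq2 called Sec31a (adjusted p = 0.0242) but not Cnih1 (adjusted p = 0.0562), among 166 genes (1.58%).

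Sec23a was measured at 64.8, 92.1, 158 and 33.4 CPM in the controls after PBS. The third mouse lay within the range of the controls after bleomycin, and the other 3 lay below it. The log2 fold change was 0.93 (SE 0.39, adjusted p = 0.332, edgeR), and it ranged from 0.66 without mouse 4 to 1.41 without mouse 3 of the PBS group. Sec24d was measured at 48.1, 107, 112 and 38.5 CPM after PBS, with mice 2 and 3 inside the range after bleomycin, and its log2 fold change was 0.76 (SE 0.34, adjusted p = 0.335, edgeR), and it ranged from 0.54 without mouse 4 to 1.03 without mouse 3. That of Sar1a was 0.41 (SE 0.19, adjusted p = 0.345, edgeR), that of Lman1 was 0.34 (SE 0.22, adjusted p = 0.479, edgeR) and that of Sec24a was -0.57 (SE 0.30, adjusted p = 0.392, edgeR). Sec23b (-0.20), Sec24c (-0.19) and Sec24b (-0.01) had adjusted p-values between 0.545 and 0.974 in edgeR.

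Control PBS mouse 3 had a fibroblast score of 7.41, within the range after bleomycin, while the other controls after PBS had scores from -0.22 to 3.07. With the fibroblast score as a covariate, the log2 fold change of bleomycin versus PBS was 0.17 (SE 0.37) for Sec23a, 0.21 (SE 0.39) for Sec24d and 0.43 (SE 0.23) for Sec31a, and 0 of the 10 genes had an unadjusted p under 0.05, beside 117 lower and 207 higher of the 10481 genes, with adjusted p-values of 1.00 in edgeR. Other markers moved with this comparison too. The 4 smooth muscle markers were higher after bleomycin without overlap (median log2 fold change 3.78), and 17 of the 20 macrophage markers were below 0 (median -0.77). With the macrophage score as a covariate 2 of the 10 genes were higher at an unadjusted p under 0.05, beside 432 of the 10481, and the part of these cell types was not tested. The ratio of Sec24d to Sec24a did not overlap between the groups, with a log2 difference of 1.37 (SE 0.43, exact permutation p = 0.0286, adjusted 0.0914). The Sec23a to Sec23b ratio was 0.940, 1.06, 2.60 and 0.406 after PBS and overlapped with that after bleomycin (log2 difference 1.32, SE 0.55, exact permutation p = 0.114, adjusted 0.203).

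After PBS, Ephb4 CKO and control cells were compared with 5 mice against 4. Sec23a was measured at 59.4, 54.4, 56.5, 45.9 and 37.6 CPM in the CKO mice and Sec24d at 49.0, 46.5, 61.3, 43.1 and 38.8 CPM. Both ranges fell inside those of the controls, which were wide. The log2 fold changes were -0.78 (SE 0.37) for Sec23a, -0.68 (SE 0.32) for Sec24d and -0.45 (SE 0.21) for Lman1, each with an adjusted p of 1.00 in edgeR. Sec24d was the only 1 of the 10 with an unadjusted p under 0.05, beside 0.563% of all genes lower. That count was 5 without control PBS mouse 4, 4 without control PBS mouse 1 and 0 without control PBS mouse 2 or 3, and it was 3 in DESeq2 and 0 in limma voom or with RLE normalization. The log2 fold change ranged from -1.05 without control PBS mouse 4 to -0.31 without control PBS mouse 3 for Sec23a, and from -0.90 to -0.43 without the same mice for Sec24d. No gene of the table (0%) passed at an adjusted p under 0.05.

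In the Ephb4-CKO mice, bleomycin and PBS groups overlapped for all 10 genes, as they did for nearly every gene, since 1 of the 10481 was lower and 8 were higher without overlap. The log2 fold changes lay between -0.17 (Sec23b) and 0.16 (Sec23a), with a median of 0.02. None of the 10 had an unadjusted p under 0.05, beside 0.716% of all genes lower and 0.248% higher, and no gene (0%) passed after adjustment in edgeR. The SE of the Sec23a value was 0.37. Without mouse 2 of the CKO group after bleomycin, the highest of its group in both genes, the values were -0.21 for Sec23a and -0.10 for Sec24d. A response of the size of these errors could not be detected here.

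The difference between the bleomycin responses of Ephb4-CKO and control cells was tested as an interaction. It was -0.57 (SE 0.21) for Cnih1 and -0.75 (SE 0.30) for Sec31a on the log2 scale, 2 of the 10 genes with a lower value at an unadjusted p under 0.05, beside 1.57% of all genes. The count was 5 without control PBS mouse 3, 3 without CKO bleomycin mouse 2, 1 without control PBS mouse 4 or CKO bleomycin mouse 3 or 4, and 0 with the number series or the fibroblast score as a covariate. The values were -0.77 (SE 0.54) for Sec23a and -0.64 (SE 0.46) for Sec24d. Without control PBS mouse 3 they were -1.25 and -0.91, and without control PBS mouse 4 they were -0.50 and -0.42. All 10 had adjusted p-values of 0.916 or above and no gene of the table (0%) passed in edgeR, so that different responses were not shown.

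Levels of the lower genes moved together across the 17 libraries. The Pearson correlation of log2 CPM was 0.95 between Sec23a and Sec24d and 0.95 between Sec23a and Sec31a, against -0.29 between Sec23a and Sec23b and -0.46 between Sec24d and Sec24c. With group means subtracted, these values were 0.87, 0.85, -0.16 and -0.26. They describe libraries that share groups, marker content and depth. Among all other genes kept, those most like Sec23a over the 17 libraries were Cdr2 (r = 0.97), Zfp9, Ikbip, Fam114a1 and P3h1 (r = 0.96 each). Those most like Sec24d were Cdr2 (r = 0.97), Gpr180 and Kdelr2 (r = 0.96 each), Fam114a1 (r = 0.96) and Copg1 (r = 0.95), so that Cdr2 and Fam114a1 stood in both lists.

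Other genes of ER exit were read from lists of partners. Of 12 coat and exit site genes kept (of 13 listed), 5 were lower and 0 were higher in Ephb4 CKO than control after bleomycin at an unadjusted p under 0.05, where 9.18% of all genes were lower and 11% higher. Sec13, the partner of Sec31 in the outer coat, was measured at 203, 133, 114 and 126 CPM in the controls and at 77.8, 89.5, 86.0 and 95.0 CPM in the CKO mice. Its groups did not overlap, with a log2 fold change of -0.73 (SE 0.20, adjusted p = 0.196, edgeR). Mia3, which encodes the procollagen export receptor TANGO1, was at -0.71 (SE 0.24), Tfg, which organizes exit sites, at -0.57 (SE 0.15), and Sec23ip, which binds Sec23, at -0.44 (SE 0.17). Sec16b, a scaffold of exit sites, was measured at 18.1, 15.3, 5.04 and 6.81 CPM in the controls and at 0.574, 3.03, 0.972 and 0.119 CPM in the CKO mice (-3.26, SE 1.40). It was above 10 CPM only in control libraries, namely bleomycin mice 1 and 2 and PBS mouse 3 (19.3 CPM). Sec16b thus passed the filter only through control libraries, and its place among the 5 lower genes is no support. Sar1b, the paralog of Sar1a, stood at 35.6 to 41.7 CPM in the controls and at 42.3 to 52.6 CPM in the CKO mice without overlap, a log2 fold change of 0.28 (SE 0.21, adjusted p = 0.427, edgeR), and Sec31b stayed under 1.2 CPM in every library and was not tested.

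Of 7 cargo receptor genes kept (of 10 listed), 2 were lower at an unadjusted p under 0.05, Surf4 (-0.61, SE 0.21) and Ergic1 (-0.30, SE 0.13), and 0 were higher, against the same shares of all genes. Of 13 genes for tethering and fusion of vesicles, 2 were lower, Yif1a (-0.50, SE 0.19) and Sec22b (-0.44, SE 0.19), and 1 was higher, Trappc3 (0.43, SE 0.19), shares near the 9.18% lower and 11% higher of all genes. The median log2 fold changes were -0.22 for the coat and exit site list, -0.11 for the receptors and -0.14 for the fusion genes. Most partners had smaller differences than Sec23a, Sec24d and Sec31a, and no partner passed at an adjusted p under 0.05 in edgeR. Sec23a, Sec24d and Sec31a were already lower in the study's own reading of these libraries, so that this contrast is not independent of how the members were chosen.

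Of 5 transcription factor genes linked to secretory capacity, 3 were lower at an unadjusted p under 0.05, beside 9.18% of all genes. Creb3l1, which encodes a membrane-bound factor that drives collagen and secretory genes in bone, was measured at 61.4, 35.2, 12.4 and 16.1 CPM in the controls and at 3.39, 5.50, 8.47 and 5.04 CPM in the CKO mice. The groups did not overlap, with a log2 fold change of -2.48 (SE 0.84, adjusted p = 0.210, edgeR). Among CKO libraries, Creb3l1 was above 10 CPM in PBS mouse 3 alone (11.5 CPM), while the filter needed 2 libraries. Creb3l1 thus passed the filter through control libraries, and its place among the 3 lower genes is no support. Creb3l2, known for driving Sec23a in cartilage, was measured at 90.6, 37.6, 32.7 and 37.5 CPM in the controls and at 16.8, 18.2, 26.9 and 21.8 CPM in the CKO mice, again without overlap (-1.24, SE 0.42, adjusted p = 0.210, edgeR). Creb3 was at -0.56 (SE 0.17, adjusted p = 0.197, edgeR), whereas Xbp1 and Atf6, factors of the unfolded protein response, were at 0.09 (SE 0.24) and 0.33 (SE 0.20). With the fibroblast score as a covariate, the log2 fold change was -0.91 for Creb3l1 and -0.87 for Creb3l2.

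**Figure D5:**
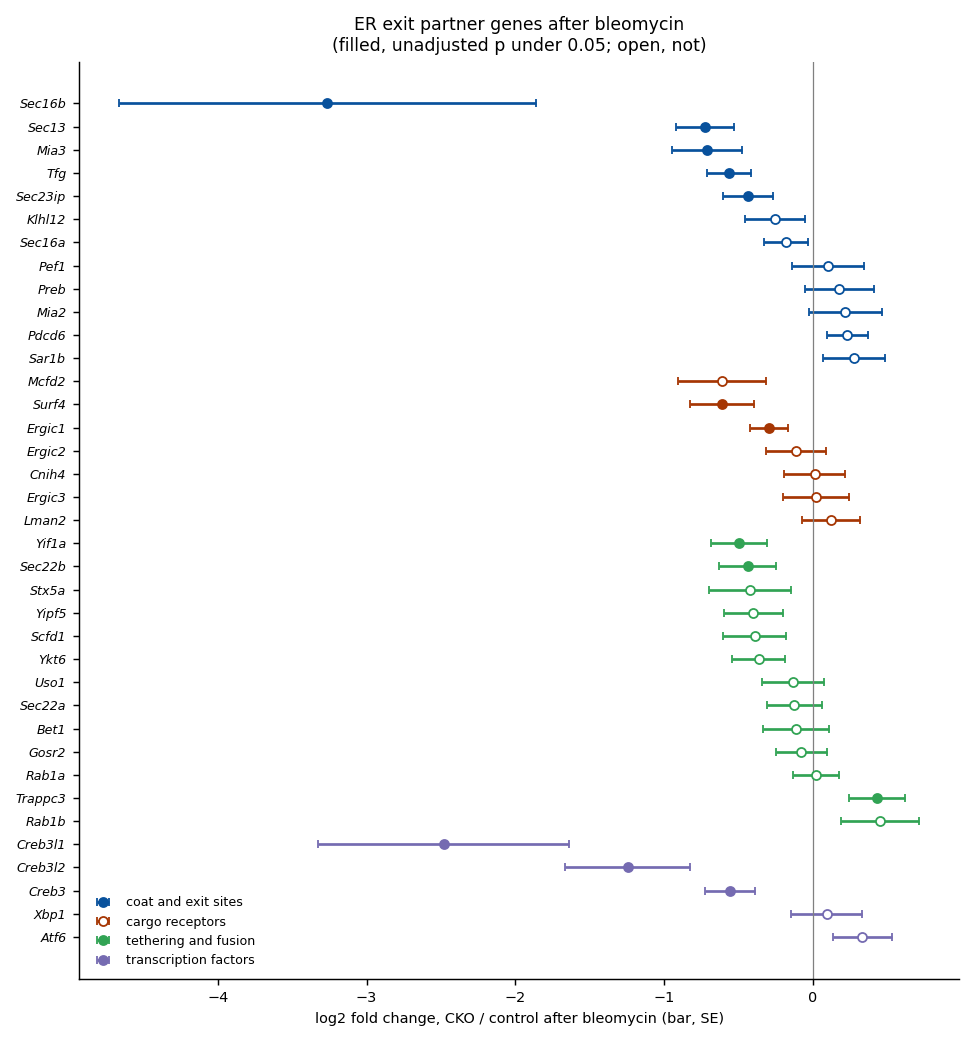
Log2 fold change (horizontal axis) of the 37 partner genes kept, Ephb4 CKO versus control after bleomycin, with the SE as a bar, grouped by role; filled points had an unadjusted p under 0.05. Sec16b and Creb3l1 lay farthest to the left, at -3.26 and -2.48, and 12 of the 13 filled points lay below 0. Sec16b passed the filter on low values only through control libraries, and Creb3l1 would not have passed it without them.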

How the data were processed

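Total RNA of 17 libraries, each from 1 mouse, was analysed, with the groups taken from the labels. The authors trimmed reads with cutadapt, aligned them to GRCm38 with HISAT2 version 2.1.0 in strand-specific mode and derived gene counts with StringTie from coverage and transcript length. The deposited counts were whole numbers without normalization. The version of cutadapt is 1.18 in the submitters' processing notes, and the methods of the study name another.

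Genes with a CPM above 10 in at least 2 libraries were kept (10481 of 55421). CPM values are relative to the summed counts of the genes kept, scaled by TMM. edgeR 4.0.16 (R 4.3.3) fitted 1 mean per group over all libraries, and its quasi-likelihood test was adjusted by Benjamini-Hochberg over all genes. The study used DESeq2 with the batch number, which the labels do not assign to each library. DESeq2 1.42.0 and limma 3.58.1 were alternatives. Each SE is the log2 fold change over the root of its F value. In simulated counts of the comparison of Ephb4 CKO with control after bleomycin, over 10481 genes, edgeR called 168 of 200 genes changed by a log2 fold change of 3. It also called 8 unchanged genes. The differences of the 10 genes were smaller than 3, so that the simulation gives no rate of recovery for them. Ratios were compared with 2-sided exact permutation tests, and correlations with 100000 permutations. Positions come from GENCODE M21 on GRCm38. Genes named are the 10 members, 5 fixed partners and 10 others with the smallest p, and the 5 genes most like Sec23a and Sec24d. The members and lists were chosen with earlier results of these data known. The p-values measure the spread between mice of this study, and those of the correlations also include the differences between the 4 groups.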

Additional observations from a re-analysis of the deposited data

Results flagged for a closer look

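Each of the 10 genes and 4 paralog ratios was examined in 4 groups for a library far from the rest of its group, 56 cases in all, of which chance would mark about 1 in 20. The highest or lowest library was compared by its gap to the nearest other library, as a share of the range of the group. No gene level was marked. The log2 ratio of Sec24d to Sec24a was marked in Ephb4 control bleomycin mouse 1, at 3.82, where Sec24d was highest (188 CPM) and Sec24a lowest (13.3 CPM) of the group. The same ratio was marked in Ephb4-CKO bleomycin mouse 2, at 2.22, a mouse whose library had sex genes against its label and the highest fibroblast score of its group (6.21). The log2 difference between the groups in this ratio was -1.30 without the first mouse and -1.91 without the other.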

How the results depend on the processing

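The number of the 10 genes called after bleomycin (Ephb4 CKO versus control) was 0 in edgeR and limma voom under every setting tried, 6 in DESeq2 and 6 in DESeq2 with the runs of columns as a covariate. For bleomycin versus PBS in Ephb4 controls it was 0, except 1 and 2, respectively, in those same DESeq2 fits. It was 0 in the other 3 comparisons under all settings. With each mouse left out in turn it stayed at 0 in all 5 comparisons. No direction of Sec23a, Sec24d, Sec31a, Sar1a, Lman1 or Cnih1 after bleomycin was reversed under any setting, and without each mouse Sec23a ranged from -1.91 to -1.36 and Sec24d from -1.55 to -1.11. Values near 0 changed sign. After bleomycin, Sec23b was -0.22 with fibroblast markers as a covariate and -0.014 in number series 12, and ranged from -0.025 to 0.11 without single mice, and Sec24c was -0.024 with fibroblast markers. In controls, with fibroblast markers, Sec23b was 0.10 and Sec24c 0.055, and Sec24b was 0.043 with no filter, 0.0057 with CPM above 1 in 4 libraries, and -0.10 to 0.10 without single mice. In the CKO mice (bleomycin versus PBS), Sec23a was -0.11 with fibroblast markers, and Sec23a and Sec24d were -0.22 and -0.061 without the libraries against their sex label; without single mice they ranged from -0.21 to 0.34 and from -0.10 to 0.23.

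For the paralog ratios, a prior count of 0.5 changed no direction, and no ratio passed with either prior count. In the CKO mice, without the libraries against their sex label, the ratios of Sec24d to Sec24a and Sec24c were -0.26 and -0.18, that of Sec23a to Sec23b was -0.13, and Sec24d to Sec24b was -0.024 in number series 12. Without single mice the ranges were (Sec23a to Sec23b, then Sec24d to Sec24a, Sec24b and Sec24c) for Ephb4 CKO versus control after bleomycin -1.97 to -1.41, -1.91 to -1.30, -1.69 to -1.33, -1.78 to -1.28, for bleomycin versus PBS in controls 0.88 to 1.78, 1.06 to 1.65, 0.69 to 1.11, 0.70 to 1.35, for Ephb4 CKO versus control after PBS -1.02 to -0.13, -0.47 to -0.02, -0.86 to -0.44, -0.90 to -0.25, for bleomycin versus PBS in CKO mice -0.061 to 0.49, -0.24 to 0.19, -0.15 to 0.22, -0.18 to 0.31. No paired analysis was possible because the replicate numbers were given in accession order and do not pair mice. Number series 12 holds 1 control mouse with PBS, so that the comparisons with that group and the interaction were not run there, since at least 2 mice per group were required. The cause of these changes was not tested.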
